A study of Danio rerio with 1324 samples.

Results

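Genes that move or bind zinc were followed in single zebrafish beta-cells: the zinc exporters slc30a8, slc30a5, slc30a7 and slc30a9, the zinc importers slc39a7 and slc39a14, and the metallothionein gene mt2. They were picked by symbol as a family, and are 7 of the 31916 genes in each table. Their identifiers were ENSDARG00000100917 (slc30a8), ENSDARG00000051921 (slc30a5), ENSDARG00000019998 (slc30a7), ENSDARG00000057272 (slc30a9), ENSDARG00000104451 (slc39a7), ENSDARG00000102387 (slc39a14) and ENSDARG00000041623 (mt2). The identifier of mt2 is named MT1X in the table of gene names. It was read as mt2 because the other metallothionein symbol of the RefSeq gene list, mtbl, has its own identifier (ENSDARG00000102051).

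In mammals, beta-cells concentrate zinc in their secretory granules, where insulin is stored as crystals of zinc-bound hexamers. Proteins of the SLC30 (ZnT) family carry zinc out of the cytosol, into organelles or out of the cell, and proteins of the SLC39 (ZIP) family carry it into the cytosol from outside or from organelles. Metallothioneins are small cysteine-rich proteins that bind zinc and copper in the cytosol, and their genes are known to be induced by zinc through the transcription factor Mtf1.

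The cells came from Tg(ins:BB1.0L) fish, in which the insulin promoter drives a fluorescent reporter, and were sorted by fluorescence, so that all groups carry the transgene and the gate depends on ins promoter activity. Single cells were sequenced from full-length cDNA, and cells of several fish were pooled before sorting, so that a pool is the sample and its cells are not replicates. Fish on normal feeding gave 10 older pools, of 3, 3 (a C1 chip sample), 4, 4 (new batch), 6, 9, 10, 12, 13 and 14 months post-fertilization (mpf), and 3 juvenile pools, of 1, 1 (new batch) and 1.5 mpf. Counting 1.5 mpf as juvenile was a choice made here. The paper's juvenile stage is 1 mpf alone, and it places 1.5 mpf between its juvenile and adolescent stages. Fish of 4 mpf fed 3 times a day and fish of 4 mpf fed intermittently, on alternate days, gave 1 pool each. The feeding groups came from one clutch and were on their schedules for a month. The 3 mpf and 6 mpf pools join 2 batches each, of other fish and another day. The paper presents the C1 chip sample as cells sequenced on another platform.

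The tables held 1014 cells, of which 745 were in older pools, 191 in juvenile pools and 78 in the feeding pools. Median depth per cell was 274026 to 1162067 reads in the older pools and 553952 to 696968 in the juvenile pools, and cells of a pool had a median of 2078 to 3654 genes detected in the older pools and of 3488 to 4958 in the juvenile pools. Transcripts of ins, the insulin gene, took on average 57.9% to 74.7% of all TPM in the older pools and 51.4% to 62.2% in the juvenile pools. TPM sum to the same total in every cell, so that a larger share of ins leaves less for all other genes. All 9 beta-cell markers were matched, and ins was read in every cell. Summed beta-cell markers other than ins averaged 1088 TPM (13 mpf) to 4007 TPM (9 mpf) in older pools, against 2272 to 2712 TPM in juvenile pools. In 13 cells ins took under 10% of the TPM, and 6 of these were in the 4 mpf pool. Summed markers of alpha cells (gcga, gcgb) averaged 437.1 to 9227 TPM in 9 of the 10 older pools and 26508 TPM in the 4 mpf pool, against 11923 to 23368 TPM in the juvenile pools. Those of delta cells (sst1.1, sst2, hhex) averaged 0 to 39689 TPM in older and 5686 to 20589 TPM in juvenile pools. Leukocyte markers reached 768.5 TPM in older (3 mpf) and 427.4 TPM in juvenile pools (1 mpf), and acinar markers 86.7 TPM in older (9 mpf) and 17.2 TPM in juvenile pools (1 mpf). Markers of endothelial cells, red blood cells and fibroblasts stayed under 1 TPM in every pool.

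Transcripts of slc30a8 were nearly absent. In mammals this gene encodes ZnT8, the transporter of the insulin granule membrane. A read of slc30a8 was found in 3 of 1014 cells (0.296%, exact 95% interval 0.0611% to 0.862%), and 12 of the 15 pools had no such cell. Most of its reads, among 470243916 over all cells, were in 1 cell of the intermittently fed pool, which had 116.06 TPM of slc30a8 and 53.2% of its TPM on ins. The other cells had 2 reads each, in the 1 mpf pool (1.16 TPM) and in the 4 mpf pool (2.45 TPM). A count of 0 allowed a share of up to 2.70% in the 12 mpf pool, which had the most cells, and of up to 23.1% in the C1 chip pool of 13 cells. These intervals and limits cover counting error only. The gene did not pass the filter on low values of the tests of age. It passed the minimum of 1 TPM set for the 2 feeding pools, through the intermittently fed pool alone.

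The most abundant of the listed zinc exporters was slc30a2, which is no member of the list and comes from a wider list of zinc genes. In mammals it encodes ZnT2, a transporter of intracellular vesicles. It averaged 93.1 TPM over the 15 pools, against 0.183 TPM for slc30a8, and was read in 87.8% of all cells. Among the older pools its mean ranged from 24.98 TPM in the C1 chip pool to 126.9 TPM in the new 4 mpf batch, and among the juvenile pools from 97.5 TPM at 1.5 mpf to 152.8 TPM at 1 mpf. On the same length-scaled measure, averaged over pools, slc39a7 reached 90.8 TPM, slc30a7 35.5 TPM, slc30a5 13.5 TPM, slc30a9 11.1 TPM and slc39a14 1.35 TPM. The mean of mt2 was 123.6 TPM but rested on 1 cell in some pools, and mtbl had 221.5 TPM.

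**Figure D1:**
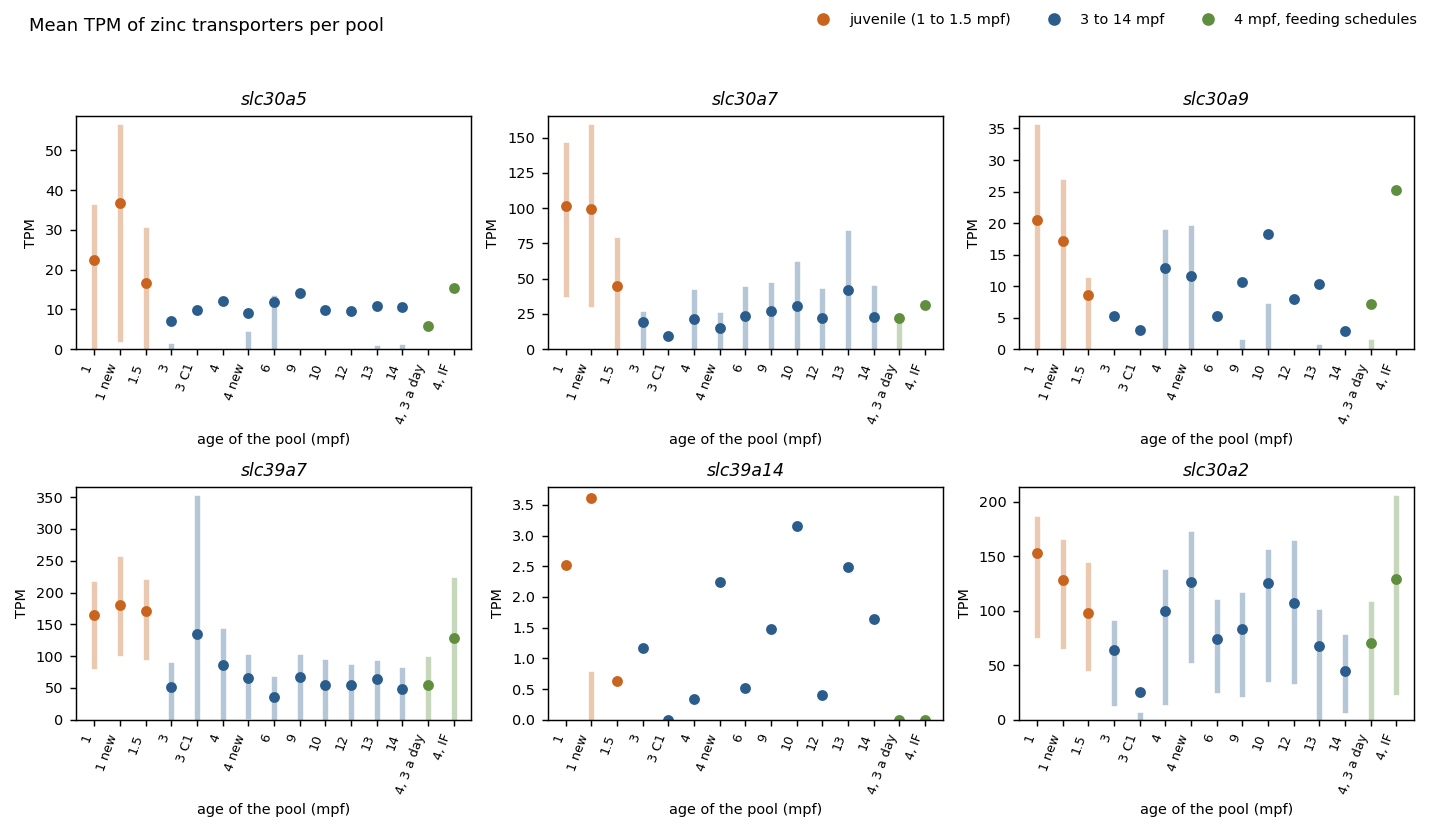
Mean TPM of 6 zinc transporters (vertical axes, TPM) in each of the 15 pools (horizontal axes, age in mpf, then the pools fed 3 times a day and intermittently at 4 mpf). Points are means over cells and bars span the quartiles of the cells; for slc39a7 the juvenile means of 164.99 to 180.3 TPM lie above all other pools.

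Among genes for transporters of the early secretory pathway, slc39a7, slc30a7 and slc30a5 had their highest levels in juvenile pools. Of the wider-list transporters that passed the filter on low values, slc30a4, slc30a6, slc39a1 and slc39a13 were highest in an older or feeding pool. The others were also highest in a juvenile pool, namely slc30a1 (ENSDARG00000005463), slc30a2, slc30a10, slc39a5, slc39a6, slc39a9, slc39a10 and slc39a11. The gene slc30a6 averaged 0 to 6.74 TPM in older and 5.74 to 6.05 TPM in juvenile pools, with its highest level, 10.3 TPM, in the intermittently fed pool, and slc39a13 reached 17.1 TPM in an older pool (C1 chip) and 3.20 TPM in a juvenile one. The gene slc39a7 encodes ZIP7, known to release zinc from the endoplasmic reticulum and Golgi to the cytosol. Its mean was 35.7 TPM in the lowest older pool (6 mpf), 59.6 TPM at the median of the 10 older pools and 134.7 TPM in the highest (C1 chip), against 164.99, 180.3 and 171.15 TPM in the 1 mpf, new 1 mpf and 1.5 mpf pools. Older and juvenile pools did not overlap, but the gap between the C1 chip and 1 mpf pools (0.29 on the log2 scale) was smaller than the same-age spread of 0.51. That spread is the pooled SD of log2 values over pools or batches of one age, with the C1 chip pool among those of 3 mpf. Values of slc39a7 spanned 1.48 at 3 mpf, against 0.13, 0.36 and 0.02 at 1, 4 and 6 mpf. The C1 chip pool thus enters both the gap and the spread. The C1 chip pool stood apart among the older pools, and the next highest was 85.3 TPM at 4 mpf. The log2 fold change between older and juvenile pools was -1.45 ± 0.35 (SE, 10 against 3 pools), with an adjusted p of 0.0608 in limma over all genes.

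The gene slc30a7 encodes ZnT7, which is known to move zinc into the Golgi. The lowest, median and highest means of slc30a7 in older pools were 9.28 TPM (C1 chip), 22.4 TPM and 42.1 TPM (13 mpf), against 101.9, 99.5 and 44.8 TPM in the 1 mpf, new 1 mpf and 1.5 mpf pools. The groups did not overlap, but the 1.5 mpf pool lay next to the 13 mpf pool, closer than the same-age spread of 0.74. Values of slc30a7 spanned 1.98 at 3 mpf, against 0.03, 0.52 and 0.13 at 1, 4 and 6 mpf. The log2 fold change was -1.77 ± 0.42 (limma, adjusted p = 0.0576). In mammals ZnT5, encoded by slc30a5, works in a complex with ZnT6 in the early secretory pathway. Its transcripts ranged from 7.10 TPM (3 mpf) to 14.2 TPM (9 mpf) in older pools with a median of 10.3 TPM, against 22.5, 36.7 and 16.7 TPM in the juvenile pools of 1, 1 (new batch) and 1.5 mpf. These did not overlap either, with a gap of 0.22 on the log2 scale, inside the same-age spread of 0.40. The log2 fold change of slc30a5 was -1.13 ± 0.37 (limma, adjusted p = 0.167).

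Levels of slc30a9, slc39a14 and mt2 overlapped between older and juvenile pools. The transporter encoded by slc30a9 is known to export zinc from mitochondria, and its mean was 2.92 to 18.3 TPM in older pools, against 8.66 to 20.5 TPM in juvenile pools (log2 fold change -0.84 ± 0.51, limma adjusted p = 0.436). The plasma membrane importer ZIP14, encoded by slc39a14, had 0 to 3.16 TPM in older pools and 0.623 to 3.62 TPM in juvenile pools (log2 fold change -0.49 ± 0.47, limma adjusted p = 0.625). The highest older pool of either gene was 10 mpf. For mt2 the fold change was 1.06 ± 1.38 on the log2 scale, an error larger than the difference (limma adjusted p = 0.730).

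Of the 6 members that passed the filter, 0 passed the test at an adjusted p of 0.05 in limma, where 0.624% of the 12658 genes did (79 genes, of which 75 were lower in older pools), and 3 members had an unadjusted p below 0.05 (1915 genes did). The median log2 fold change was -0.99 over the 6 members and -0.41 over all genes tested. Older pools lay below all juvenile pools in mean TPM for 3 of the 6 members, and for 3.07% of all genes tested. After ins was left out and TPM were rescaled, which moved the median of all genes to -0.08, older pools lay below all juvenile pools for slc39a7 alone among the members, and for 1.22% of all genes. For ins itself the log2 fold change with all TPM was 0.30 ± 0.07 (limma, adjusted p = 0.0570). Without ins, slc39a7 had a log2 fold change of -1.02 ± 0.29 and slc30a7 of -1.40 ± 0.46, with limma adjusted p of 0.244 and 0.376. Alpha-cell markers, given above, were higher in the juvenile pools than in 9 of 10 older pools. When cells with at least 10000 TPM of alpha and delta markers (0 to 25 cells of a pool) were left out, slc39a7 had a log2 fold change of -1.44 ± 0.36 (limma, adjusted p = 0.0750) and slc30a7 of -1.75 ± 0.43 (limma, adjusted p = 0.0718), and 0 of the 6 members and 0.406% of all genes passed.

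Single pools and processing choices changed these calls. Without the C1 chip pool both slc30a7 (adjusted p = 0.0199) and slc39a7 (adjusted p = 0.00892) passed in limma, as did 284 of 12544 genes. Likewise slc30a7 passed without the 1.5 mpf pool (adjusted p = 0.0241), where 267 of 12521 genes did. It also passed without the 10 mpf pool (adjusted p = 0.0486) or the 13 mpf pool (adjusted p = 0.0414). Without the 1 mpf pool or its new batch, 0 of 12324 and 1 of 12339 genes passed. There the adjusted p in limma was 0.555 and 0.572 for slc30a7 and 0.441 and 0.553 for slc39a7. The fold changes of both were negative each time. With the batches of 3 and 6 mpf as separate pools, slc39a7 had an adjusted p of 0.0403 and slc30a7 of 0.0614 in limma, and 95 of 13013 genes passed. With a pseudocount of 10 both passed (adjusted p = 0.0312 for slc39a7 and 0.0183 for slc30a7), as did 293 of 12658 genes. Among the members slc39a7 alone passed without the filter on low values (adjusted p = 0.0472) and without the cell of the highest value in each pool (adjusted p = 0.0428). In each of these settings where a member passed, the share of all genes that passed was larger than the 0.624% of the main fit.

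**Figure D2:**
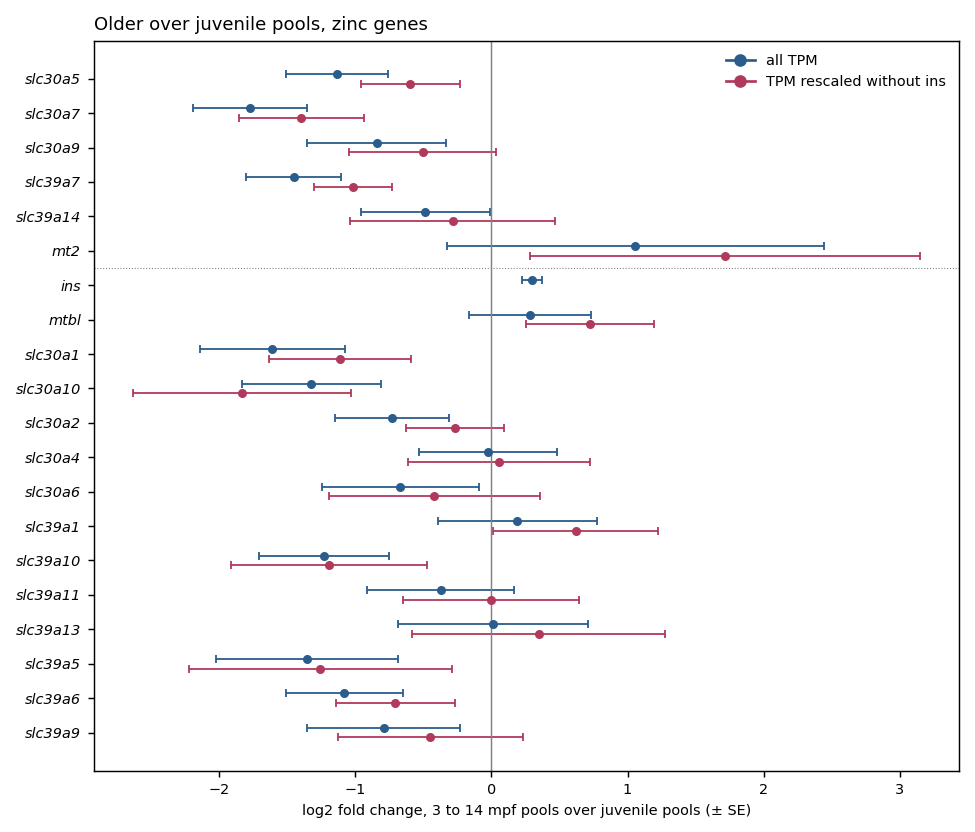
Log2 fold change of older (3 to 14 mpf) over juvenile pools for the 6 members tested (above the dotted line) and for ins and the other zinc genes tested (below it), with bars of 1 SE from limma, with all TPM and after TPM were rescaled without ins. For slc39a7 the value is -1.45 with all TPM and -1.02 without ins, and for mt2 the bar of 1.38 is longer than the value of 1.06.

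The shares of cells with a read of the same genes did not overlap either. A read of slc39a7 was found in 47.8% to 76.1% of the cells of older pools and in 96.7% to 97.7% of those of juvenile pools. For slc30a7 the shares were 15.4% to 56% in older and 67.6% to 96.7% in juvenile pools, and for slc30a5 they were 7.69% to 30% in older and 50% to 73.3% in juvenile pools. These 3 of 6 members did not overlap between older and juvenile pools, nor did 20.9% of all genes tested, which were lower in older pools, with fewer genes read per cell in most older pools. Cells were also thinned to 100000 reads, or to 20000 reads without ins, and cells with fewer reads were left out. At 100000 reads the count of members was also 3 (21.6% of all genes), and slc39a7 had 44.2% to 74.2% in older and 96.5% to 97.1% in juvenile pools. At 20000 reads without ins the count was again 3 (15% of all genes), and slc39a7 had 37.3% to 70.9% in older and 94.1% to 96.7% in juvenile pools. When each pool was given the mean over cells of log2(TPM + 1), a value that follows the share of cells with a read, 5 of the 6 members (slc30a5, slc30a7, slc30a9, slc39a7 and slc39a14) passed the test in limma as lower in older pools, where 38.3% of all genes did. On that scale slc39a7 differed by -3.30 ± 0.51 (adjusted p = 0.00029) and slc30a7 by -3.06 ± 0.51 (adjusted p = 0.000401).

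**Figure D3:**
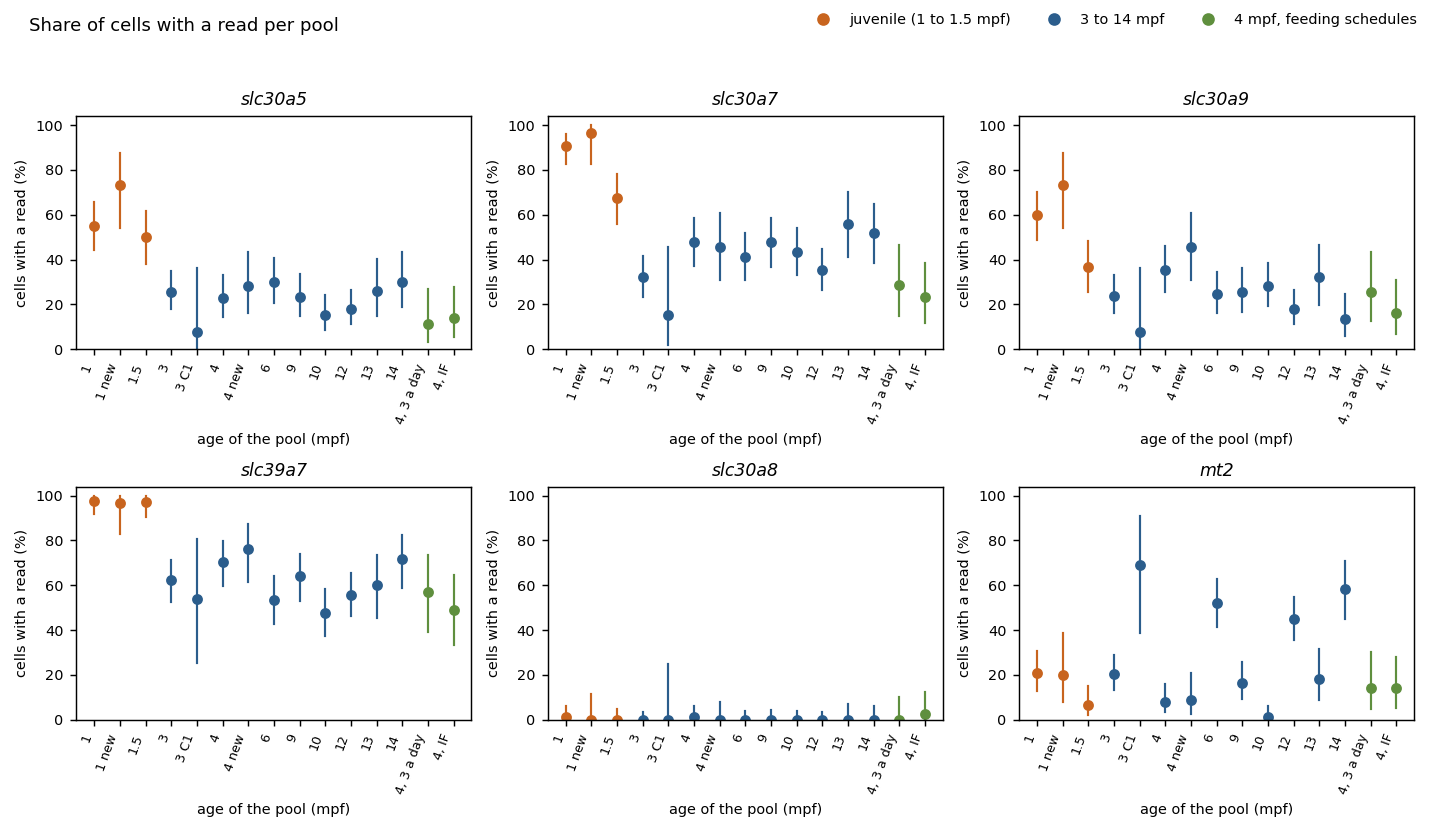
Percent of cells with a read (vertical axes) of 5 transporters and mt2 in the 15 pools (horizontal axes, age in mpf, then the pools fed 3 times a day and intermittently at 4 mpf). Bars are exact 95% intervals over cells; slc39a7 was read in 96.7% to 97.7% of juvenile cells, slc30a8 in at most 2.33% of a pool and mt2 in 1.09% to 69.2%.

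For most pools age and day of collection cannot be told apart. Pools that share a plate or a date were therefore also compared, first with 1 pool a side and no test. On the plate that held both the 13 mpf and the new 1 mpf cells, slc39a7 had 64.3 TPM at 13 mpf and 180.3 TPM at 1 mpf, a log2 difference of -1.47. On that plate slc30a5 had 10.9 TPM at 13 mpf and 36.7 TPM at 1 mpf (-1.67), and slc30a7 had 42.1 TPM at 13 mpf and 99.5 TPM at 1 mpf (-1.22). These 3 of 6 members were lower by more than 1 on the log2 scale, as were 45.4% of all genes. After ins was left out, 0 of the 6 were, against 34.3% of all genes, and with the mean over cells of log2(TPM + 1) 4 of the 6 were (34.9%). Without the cell of the highest value in each pool 3 of the 6 were (41.5%). Summed beta-cell markers other than ins averaged 1088 TPM in this 13 mpf pool and 2380 TPM in the new 1 mpf pool. For the pools of 12 and 1 mpf of one collection date, 5 of 6 members (slc30a5, slc30a7, slc30a9, slc39a7 and slc39a14) were lower by more than 1 at 12 mpf, where 34.2% of all genes were, with slc30a7 at 21.8 TPM at 12 mpf and 101.9 TPM at 1 mpf (-2.17) and slc39a7 at 54.99 TPM at 12 mpf and 164.99 TPM at 1 mpf (-1.57). Without ins 2 of the 6 were lower by more than 1 (19.6% of all genes), and mt2 was higher by 1.25. With the mean over cells of log2(TPM + 1) 4 of the 6 were lower by more than 1 (26.8%), and without the cell of the highest value in each pool 5 were (31.5%). Both pairs were also put in one limma fit, blocked by date or plate, which leaves 1 residual degree of freedom per gene. There 0 of 6 members passed and 2.46% of all genes did, with slc39a7 at -1.52 ± 0.38 (adjusted p = 0.0740), slc30a7 at -1.70 ± 0.44 (adjusted p = 0.0796) and slc30a5 at -1.40 ± 0.49 (adjusted p = 0.136).

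In the other tests of age members were called only in alternatives of the trend over 13 pools. In edgeR on summed counts, 0 of 6 members and 0.0% of 14128 genes differed between adult (10, 12 and 14 mpf) and adolescent (3, 4 and 6 mpf) pools (509 genes at an unadjusted p below 0.05), while DESeq2 called 38 genes, of which 0 were members. In that comparison slc30a7 had a log2 fold change of 0.62 ± 0.31 (edgeR, adjusted p = 1.00). For the trend over the 7 ages of the count table edgeR called 0 of 6 members and 0.0% of 16183 genes (687 at an unadjusted p below 0.05) and DESeq2 called 1.04% of the genes and 0 members. For the trend over the 10 older pools limma called 0 of 6 members and 0.0% of 11748 genes (1371 at an unadjusted p below 0.05), where slc30a7 had 0.46 ± 0.22 per doubling of age (adjusted p = 0.426). Over all 13 pools, juvenile ones included, limma called 0 of 6 members and 0.427% of 12658 genes. There slc39a7 had -0.46 ± 0.11 per doubling of age (limma, adjusted p = 0.0687). Without the C1 chip pool slc39a7 passed in limma (adjusted p = 0.0254), as did 469 of 12544 genes. With the mean over cells of log2(TPM + 1), that trend called 4 of 6 members as falling with age (slc30a5, slc30a7, slc30a9 and slc39a7), and 20.8% of all genes in either direction.

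Levels of mt2 differed widely between pools of one age and between ages. The share of cells with a read of mt2 in the 10 older pools had its lowest value at 10 mpf (1.09%), a median of 19.1% and its highest value in the C1 chip pool (69.2%), against 20.7%, 20% and 6.76% in the 1 mpf, new 1 mpf and 1.5 mpf pools. All juvenile values lay within the older range. The 10 mpf pool had mt2 in 1 of 92 cells (exact 95% interval 0.0275% to 5.91%), while 45.05% of cells had it in the 12 mpf pool, 58.3% in the 14 mpf pool and 52.2% in the 6 mpf pool. Thinned to 100000 reads per cell, the 10 mpf pool had 1.04%, the 12 mpf pool 43.3% and the 14 mpf pool 51.6%. Between pools or batches of one age, log2 levels of mt2 had a pooled SD of 3.15, and the SD between the means of 10 ages was 2.27. Without cells that had ins below 10% of their TPM these were 2.37 and 2.38.

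The batches of 6 mpf differed in mt2. In the second batch mt2 was read in 37 of 51 cells (72.5%, exact interval 58.3% to 84.1%) at a mean of 546.7 TPM, and in the first batch in 10 of 39 cells (25.6%, interval 13.0% to 42.1%) at 27.6 TPM. At least 1000 TPM of mt2 were found in 8 cells of the second batch and 0 of the first. The 3 of these cells with the highest mt2 had 114648, 255321 and 518295 TPM of delta-cell markers, whose part in the result was not tested. At 3 mpf the second batch had mt2 in 5 of 35 cells (14.3%) and the first in 17 of 74, while the C1 chip pool of that age had it in 69.2%. With 1 batch a side there is no test.

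Single cells carried several of the mt2 means. In the 4 mpf pool 97.3% of all mt2 TPM came from 1 cell with 41451 TPM, and in the 1 mpf pool 84.3% came from 1 cell with 7051 TPM. Transcripts of ins took 0.316% and 0.183% of the TPM of these cells, and their leukocyte markers (ptprc, cd74a and lcp1) summed to 59404 and 26588 TPM. In the 4 mpf cell most of that sum was cd74a (58776 TPM), with 303.5 TPM of ptprc and 323.9 TPM of lcp1. Both cells had ins below 10% of their TPM, and leaving out all such cells kept 82 of 88 cells at 4 mpf and 85 of 87 at 1 mpf. When cells with ins below 10% of their TPM were left out, mt2 averaged 8.67 TPM at 4 mpf, against 484.0 TPM with all cells, and 15.5 TPM at 1 mpf, against 96.2 TPM with all cells. The 6 mpf mean of 321.8 TPM became 325.4 TPM, and the 14 mpf mean of 130.6 TPM became 119.3 TPM. In the C1 chip pool the 1 cell with most mt2, of 13 cells, had 5725 TPM against a pool mean of 587.6 TPM, and ins took 70.98% of its TPM.

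**Figure D4:**
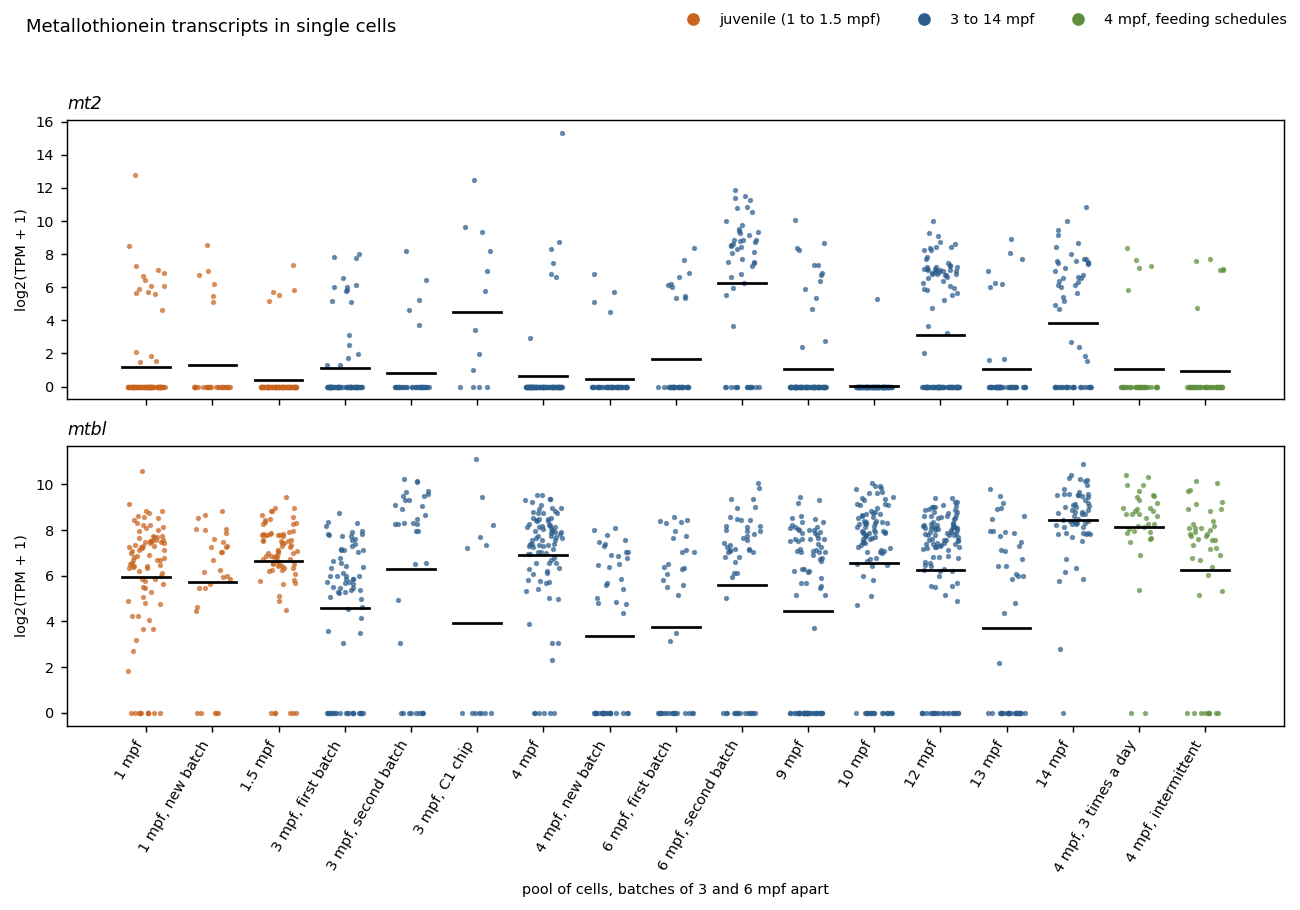
Values of single cells, as log2(TPM + 1) on the vertical axes, for mt2 (upper panel) and mtbl (lower panel) in each pool along the horizontal axis, with the batches of 3 and 6 mpf apart and lines at the mean over cells. A read of mt2 was found in 72.5% of the cells of the second and 25.6% of the first 6 mpf batch, and in 1.09% at 10 mpf.

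The other metallothionein gene, mtbl, was read in most cells of most pools. Its share was 46.2% to 98.3% in older and 83.3% to 91.9% in juvenile pools, and its mean 57.3 TPM (new 4 mpf batch) to 505.1 TPM (14 mpf) in older and 131.9 to 172.5 TPM in juvenile pools. At 14 mpf a read of mtbl was found in 59 of 60 cells, and at 10 mpf, where mt2 was read in 1 cell, mtbl was read in 75 of 92 cells at 283.9 TPM. The second batch of 3 mpf had 377.4 TPM of mtbl and the first 81.96 TPM. Both genes were read together in 35 cells at 14 mpf, mtbl alone in 24 and mt2 alone in 0. In the second batch of 6 mpf mt2 exceeded mtbl in 29 of 51 cells, against 6 of 39 in the first. In edgeR, mtbl had a trend of 0.60 ± 0.16 per doubling of age over the 7 ages of the count table (adjusted p = 0.812), and DESeq2 put it past the threshold (adjusted p = 0.0423). Reads that fit both genes could not be followed here, and how the counting treated them was not tested.

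Feeding was compared between 1 pool fed 3 times a day and 1 pool fed intermittently, with no replicate and no test. Mean slc39a7 was 54.97 TPM with feeding 3 times a day and 128.4 TPM with intermittent feeding, and slc30a9 was 7.11 TPM with feeding 3 times a day and 25.3 TPM with intermittent feeding. Log2 differences were -1.21 for slc39a7, -1.70 for slc30a9, -1.25 for slc30a5 and -1.89 for slc30a8, the last from 1 cell. These 4 of 6 members were lower by more than 1 with feeding 3 times a day, as were 36.7% of all genes, but slc30a8 could only be lower, since it passed the minimum through the intermittently fed pool. Without the cell of the highest value in each pool 3 members were, and 25.7% of all genes. Shares of cells did not follow the means. A read of slc39a7 was found in 20 of 35 cells (57.1%, exact interval 39.4% to 73.7%) fed 3 times a day and 21 of 43 (48.8%, 33.3% to 64.5%) fed intermittently, and of slc30a9 in 25.7% fed 3 times a day and 16.3% fed intermittently. With the mean over cells of log2(TPM + 1), 0 of the 6 members were lower by more than 1, and 2.3% of all genes were. After ins was left out slc30a8 alone was, and 27.1% of all genes. For mt2 the shares were 14.3% with feeding 3 times a day and 14.0% with intermittent feeding. Those of mtbl were 33 of 35 cells (94.3%) with feeding 3 times a day and 34 of 43 (79.1%) with intermittent feeding. Its means were 461.2 TPM with feeding 3 times a day and 259.7 TPM with intermittent feeding, a log2 difference of 0.83. The importer gene slc39a14 was read in 0 of 35 and 0 of 43 cells, which allows shares of up to 8.57% with feeding 3 times a day and 6.98% with intermittent feeding.

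The wider list held 18 further identifiers, of which 13 passed the filter of the older and juvenile comparison together with the members. None of the 13 passed the limma test, and 4 had an unadjusted p below 0.05, against 79 and 1915 of all 12658 genes. Of the 13, 10 had a negative and 3 a positive log2 fold change, with a median of -0.73 (-0.41 over all genes). With the mean over cells of log2(TPM + 1), 5 of the 13 passed as lower in older pools, where 38.3% of all genes did. In share of cells with a read, older pools lay below all juvenile pools for slc30a1, slc30a6, slc39a6, slc39a9 and slc39a10, and for 20.9% of all genes. After cells were thinned to 100000 reads, of these only slc39a6 and slc39a9 stayed apart, as 21.6% of all genes did. The lowest juvenile and highest older shares were then 19.7% and 25.5% for slc30a1 and 12.3% and 12.7% for slc30a6. For slc39a10 they were 18.3% and 23.3%. The gene slc30a1 (ENSDARG00000005463) is known in mammals as the exporter of the plasma membrane and a target of Mtf1. It had 1.92 to 10.2 TPM in older pools, against 52.4, 23.3 and 5.24 TPM in the 1 mpf, new 1 mpf and 1.5 mpf pools (log2 fold change -1.61 ± 0.53, limma adjusted p = 0.169). In mean TPM its 1.5 mpf pool lay among the older ones. Without that pool slc30a1 passed in limma (adjusted p = 0.0204), as did 267 of 12521 genes. The sensor gene mtf1 was read in 3 of 1014 cells, and slc39a3 and the second identifier of slc30a1 (ENSDARG00000053896) in none, which allows up to 0.296% of cells.

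Across cells of a pool the members were only weakly related to each other and to ins. The median over pools of Pearson's r with ins was -0.14 for slc39a7 (range -0.52 to 0.29 over 15 pools), -0.14 for mt2 (-0.59 to 0.08 over 13 pools) and -0.12 for mtbl (-0.60 to 0.30 over 15 pools). Spearman's rho had medians of -0.14, -0.16 and -0.22 for slc39a7, mt2 and mtbl. Between mt2 and mtbl the median r was -0.05, and between slc30a7 and slc39a7 it was 0.06, positive in 13 of 14 pools. After TPM were rescaled without ins, r between slc30a7 and slc39a7 was positive in 10 of 14 pools, with a median of 0.06. Cells of a pool share depth and the fixed sum of TPM, and these values are descriptions with no test. Among 5007 genes with a read in at least 20% of all cells, those whose log2(TPM + 1) ran most like a member's, by mean r over pools, were SF3A2 (0.19), NAA38 (0.19) and LMAN1 (0.17) for slc30a7, PDHB (0.18), CLTC (0.17) and fxyd3 (0.16) for slc39a7, and tuba1b, PSMD5 and ARPC5 (0.16 to 0.17) for slc30a5. For slc30a9 they were PHAX, cry3b and nrip1b (0.16 to 0.17), for slc39a14 RASA1, OPTN and HPF1 (0.15), and for mt2 GM2A, malat1 and an unnamed gene, ENSDARG00000088258 (0.15 to 0.16). Those of slc30a8 (adh8b, CALCB and nlk1) rest on 1 cell in each of 3 pools.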

How the data were processed

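Beta-cells were sequenced one by one, and per the labels a SMART-Seq v4 kit was used after FACS. The submitters' processing notes name Trim Galore, HISAT2, HTSeq and the build GRCz10; versions and the annotation release are not given in the sources used here. The authors deposited raw read counts per gene for 637 cells of 7 ages, and TPM (counts corrected for gene length and set to one total in each cell) for all 1014 cells. GEO labels 1324 cells, and cells without a column were not analysed here. Columns were tied to groups by their names, or for 1.5 mpf and the C1 chip by the title of their table. Lengths recovered from the counts and TPM turned cohort TPM into whole reads (tolerance 0.02), used for depth and thinning only. Genes were named from a table of identifiers, and 5 marker names came from the paper's supplementary gene lists. No sequences were used.

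A pool was the sample, because cells share fish. No label separates fish within a pool, and p-values measure the spread between pools. Counts were summed per pool and tested with edgeR 4.0.16 (quasi-likelihood, TMM, filterByExpr). Log2(mean TPM + 1) was tested with limma 3.58.1 (trend on) for genes with at least 1 TPM in 3 pools, which understates changes of low genes. DESeq2 1.42.0 was an alternative. P-values were Benjamini-Hochberg adjusted over all genes (threshold 0.05), and the scripts were tested on simulated data. Shares carry exact Clopper-Pearson 95% intervals. For a count of 0 the limit given is instead 3 divided by the number of cells. Differences between single pools carry no test. The members, gene lists and tests were chosen with earlier results of these data known. Named were all members, ins and mtbl, and of the wider zinc list the genes that passed a test and the 3 with the highest mean TPM. Added after their values were seen were mtf1, slc39a3, the second slc30a1 identifier and the wider-list transporters that passed the filter on low values. Of the wider list, slc30a3, slc39a12 and mt1 matched no identifier, and the pair slc30a1a and slc30a1b could not be told apart.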

Additional observations from a re-analysis of the deposited data

Results flagged for a closer look

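Among the 10 older pools, the highest or lowest value was checked for each member and mtbl, in mean TPM and in the share of cells with a read. These were 16 sets of 10 pools, and 4 values lay far from the rest. Chance would set apart about 1 in 20 sets of independent, normally spread values. The sets here need not be such, since pools differ in age and platform and both measures come from the same cells. The 4 mpf pool was the only older pool with a read of slc30a8, at a mean of 0.0278 TPM and in 1.14% of cells, both from 1 cell. Since the other older pools had 0, the check had to set these values apart, and the rate of 1 in 20 does not apply to them. The C1 chip pool, of 13 cells from another platform, had 134.7 TPM of slc39a7. Its share of cells with a read of slc39a7 was 53.8%, against a median of 61.2% over the older pools. The 14 mpf pool had 505.1 TPM of mtbl.

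The 2 pairs of an adult and a juvenile pool that share a date or a plate gave differences of opposite sign for both metallothionein genes, a contrast that was not tested. For mt2 the log2 difference was -0.27 for 12 over 1 mpf and 0.033 for 13 over 1 mpf. For mtbl it was 0.46 for 12 over 1 mpf and -0.068 for 13 over 1 mpf. Each difference lay inside the same-age spread, a pooled SD of 3.15 for mt2 and 1.04 for mtbl. The mt2 mean of the 1 mpf pool was carried by the 1 cell with 7051 TPM described above. The signs of these differences depended on the processing. For 12 over 1 mpf mt2 was positive in all 3 alternatives (1.25 without ins, 1.93 with the mean of log2(TPM + 1) and 2.14 without the cell of the highest value in each pool). For 13 over 1 mpf mt2 was -0.23 with the mean of log2(TPM + 1), and mtbl was 0.47 without ins.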

How the results depend on the processing

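No paired analysis was possible because the numbers in the sample titles name single cells, and the pools that were tested carry none; pools of a shared date or plate were blocked instead. Limits are the 3 juvenile pools, a single pool per feeding schedule, ages collected on different days, and the low detection of slc39a14 and slc30a8.

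Shares of genes past the threshold are given in percent of the genes each setting tested. Between older and juvenile pools the share was 0.624%, against 0.103% with a pseudocount of 0.1, 2.31% with 10, 0.745% without the filter, 38.4% with the mean of log2(TPM + 1), 0.217% without ins, 2.26% without the C1 chip pool, 1.49% without the highest cell of each gene, 0.406% without cells of high alpha and delta markers and 2.46% in the pairs blocked by date or plate. Leaving out each pool in turn gave 0.0% (without the 1 mpf pool) to 2.26%. The trend over 13 pools gave 0.427%, against 0.0632% with a pseudocount of 0.1, 0.00416% without the filter, 20.8% with the mean of log2(TPM + 1), 0.0526% without ins, 3.74% without the C1 chip pool, 0.138% with batches apart and 0.684% without low-ins cells (0.0081% to 3.74% leaving out each pool). The trend over 10 pools gave 0.0%, against 0.00819% with batches apart (0.0% to 0.0175%). For adult against adolescent pools it was 0.0%, against 0.269% with DESeq2 (0.0% leaving out each pool). For the 7 ages it was 0.0%, against 1.04% with DESeq2, 0.0392% without the filter and 0.00622% without low-ins cells (0.0% to 0.00627%).

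Members lower by more than 1 with feeding 3 times a day numbered 4 (36.7% of all genes). They numbered 0 with the mean of log2(TPM + 1) (2.3%) and 1 without ins (27.1%). That 1 was slc30a8, also among the 4, which could only be lower, since it passed the minimum through the intermittently fed pool. On the shared plate members lower by more than 1 at 13 mpf numbered 3 (45.4%), against 0 without ins (34.3%) and 4 with that mean (34.9%). Signs were followed for the members and mtbl between older and juvenile pools and between single pools, but in other tests for some genes only. Of these, values that changed sign between older and juvenile pools were mtbl (-0.75 with the mean of log2(TPM + 1)) and mt2 (-0.12 in the blocked pairs). Over 10 pools mt2 did (0.069 with that mean, 0.048 without the highest cell). Between feeding schedules slc30a9 and slc30a7 did (0.019 and 0.12 with that mean). So did mt2 for 12 over 1 mpf (1.25 to 2.14), and for 13 over 1 mpf mt2 (-0.23 with that mean) and mtbl (0.47 without ins). Elsewhere the count of positive members also changed. Over the 7 ages it was 2 of 6, against 4 without the 1 mpf pool and 1 without the 10 mpf pool. Over 13 pools it was 1, against 2 without ins and 0 with a pseudocount of 0.1. For adult against adolescent pools it was 4, against 5 without the 3 mpf pool and 3 without the 14 mpf pool. The cause was not tested. Leaving out low-ins cells, cells of high alpha and delta markers or the highest cell, and the pair of one date and the blocked fit, were chosen after seeing the data.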
